A study of Mus musculus with 7 samples.

Results

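The regions described here are stretches of H3K27-Ac, a histone mark of active promoters and enhancers, that lie over divergent promoter pairs in 3 mouse skin tumour clones. A divergent pair was taken as 2 protein-coding genes on opposite strands, with the minus-strand gene to the left, whose outermost annotated starts are 1 to 1000 bp apart. The annotation of GRCm38 on chromosomes 1 to 19 holds 20807 protein-coding genes and 734 such pairs, which are made of 1448 genes. The peaks of the 3 clones were merged where they overlapped by at least 1 bp, and a member is a merged region within 1 kb of either start that is overlapped by a peak of every clone. Members were thus chosen by the presence of peaks in the data themselves. There were 651 members among 56903 merged regions, and 15462 merged regions, or 27.2%, were overlapped by all 3 lists wherever they lay. A further 6955 shared regions lie within 1 kb of the start of 1 protein-coding gene that belongs to no pair, and they are used below as the regions of single genes.

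All 3 clones are Cdkn2ab-/- cells from skin tumours of mice on an FVB/129P2 backcross, so every sample lacks Cdkn2ab and there is no second condition. Each clone comes from a different tumour and had been picked for growth in soft agar, so it stands for a single colony of cells able to grow without attachment and not for the whole tumour. The 4 H3K27-Ac libraries are 1 of clone 1, 1 of clone 2 and 2 of clone 3, the last pooled by the authors before peaks were called. The 3 IgG control libraries belong to clones 1 and 3, and none of clone 2 was analysed here. Which control the list of clone 2 was called against is not given in the sources used here, so its fold enrichment and background rest on a control of unknown source. The lists hold 28641, 48925 and 28798 peaks on these chromosomes in clones 1, 2 and 3. The median summit of these lists holds 37, 34 and 53 ChIP reads, and the fewest are 13, 12 and 25. These are not a fixed threshold, because the reads that a site needed to be listed also depended on its local background. Of 7 keratinocyte genes, 2 (Cdh3 and Sox9) carried a peak at the promoter in every clone and 4 (Krt5, Trp63, Cdh1 and Lef1) in none. Krt14 had peaks in clone 1 alone. Of 6 mesenchymal genes, 2 (Vim and Twist1) had one in every clone and 1 (Thy1) in none. The mesenchymal genes Col1a1, Col1a2 and Pdgfra had one in clones 1 and 2 but not in clone 3. Of 3 melanocyte genes 2 had a peak in every clone, and none of 3 immune and 2 endothelial genes had one in any clone. The epithelial keratin gene Krt5 and the basal cell factor Trp63 thus carried no called peak at their outermost annotated start, while Cdh3 and Sox9 did. Other starts of these genes were not examined.

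In a divergent promoter, RNA polymerase starts in both directions from one stretch of open DNA, and each gene has its own start at an edge of that stretch. Such pairs are known to be common among housekeeping genes, many in DNA repair, mitochondria and chromatin, and their promoters are usually CpG islands without a TATA box. The first nucleosomes on either side of the open stretch are the ones that carry H3K27-Ac at active promoters. A peak list can therefore tell on which side of a pair the mark is highest, but not which gene is transcribed more.

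The bases between the 2 starts are shown for pairs that differ in motif content and in the strength of the mark, all read from GRCm38 on the plus strand, with the minus-strand gene to the left of the first base and the plus-strand gene to the right of the last. Capitals mark matches on either strand to any of the 11 motifs searched, which in these stretches are CCAAT (read as ATTGG on the other strand), bound by NF-Y, GGGCGG (or CCGCCC), bound by SP and KLF factors, TTCCCGCC (or GGCGGGAA), bound by E2F, and GCGCATGCG (or CGCATGCGC), bound by NRF1, together with TATAAA (or TTTATA), the TATA box. The first 2 pairs are textbook examples. Brca1, which acts in DNA repair by recombination, and Nbr1, a receptor of selective autophagy, are separated by chr11:101551956-101552148. Mrps12, a protein of the mitochondrial ribosome, and Sars2, the mitochondrial seryl-tRNA synthetase, are separated by chr7:28741821-28741991, where an SP match and an E2F match overlap.
Brca1/Nbr1: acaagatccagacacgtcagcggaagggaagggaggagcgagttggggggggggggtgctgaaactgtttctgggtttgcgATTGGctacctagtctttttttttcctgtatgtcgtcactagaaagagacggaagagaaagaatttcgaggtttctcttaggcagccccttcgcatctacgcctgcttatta
Mrps12/Sars2: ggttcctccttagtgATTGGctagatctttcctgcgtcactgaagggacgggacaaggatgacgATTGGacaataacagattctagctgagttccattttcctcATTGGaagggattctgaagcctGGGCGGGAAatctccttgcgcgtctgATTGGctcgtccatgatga

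The next 3 belong to pairs with very strong peaks in all clones. Recql, a DNA helicase, and Golt1b, a Golgi protein, flank chr6:142387088-142387220, in which 4 CCAAT matches lie within 133 bases. Dnajb4, a heat shock protein co-chaperone, and Fubp1, a single-strand DNA binding regulator, flank chr3:152210303-152210421. Pafah1b2, an acetylhydrolase subunit, and Sik3, a salt-inducible kinase, flank chr9:46012691-46012819, which is rich in CpG and holds no match to any of the 11 motifs.
Recql/Golt1b: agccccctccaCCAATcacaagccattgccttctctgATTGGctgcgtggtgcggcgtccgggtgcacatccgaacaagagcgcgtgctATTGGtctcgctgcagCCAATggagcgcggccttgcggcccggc
Dnajb4/Fubp1: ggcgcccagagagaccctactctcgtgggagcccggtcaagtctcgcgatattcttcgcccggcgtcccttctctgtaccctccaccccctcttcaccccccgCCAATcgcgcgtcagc
Pafah1b2/Sik3: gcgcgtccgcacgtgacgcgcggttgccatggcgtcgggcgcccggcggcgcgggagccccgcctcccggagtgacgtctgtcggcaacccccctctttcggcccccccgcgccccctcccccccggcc

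The last 3 show other kinds of gap. Polh, a polymerase that copies past DNA damage, and Xpo5, the exporter of microRNA precursors, flank chr17:46202646-46202781 with 2 palindromic NRF1 sites, each of which is counted as 2 overlapping matches. The histone genes Hist1h2ac and Hist1h2bc flank chr13:23683949-23684198, which has a TATA box, 3 CCAAT matches and a GC content of 41.6%. Slc25a27, a mitochondrial carrier, and Cyp39a1, an oxysterol hydroxylase, flank chr17:43667215-43667424 and had one of the weakest members.
Polh/Xpo5: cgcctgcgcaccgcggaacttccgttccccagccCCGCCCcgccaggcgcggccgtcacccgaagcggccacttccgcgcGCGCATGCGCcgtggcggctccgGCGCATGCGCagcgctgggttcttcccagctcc
Hist1h2ac/Hist1h2bc: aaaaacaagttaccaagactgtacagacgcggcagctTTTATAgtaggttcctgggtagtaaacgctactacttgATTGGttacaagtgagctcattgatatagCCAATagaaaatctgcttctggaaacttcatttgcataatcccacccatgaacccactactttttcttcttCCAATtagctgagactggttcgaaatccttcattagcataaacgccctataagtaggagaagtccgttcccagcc
Slc25a27/Cyp39a1: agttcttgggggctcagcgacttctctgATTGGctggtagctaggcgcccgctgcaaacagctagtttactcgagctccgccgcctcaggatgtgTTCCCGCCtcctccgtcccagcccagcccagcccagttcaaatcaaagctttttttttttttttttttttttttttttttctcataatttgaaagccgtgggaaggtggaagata

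Most divergent pairs carried a shared region. Of the 734 pairs 661 (90.1%) had at least 1 member, 9 of them had 2, and 19 members lay near 2 pairs. Counted by gene, 1303 of 1448 paired genes (90.0%) had a shared region within 1 kb of their start, against 8054 of 19359 genes in no pair, or 41.6%. The rule used these peaks, so the shares are a description. The 2 starts of a pair lie close together, so 1 region can count for both genes, whereas an unpaired gene has only its own start. The shares by gene do not show that each paired gene is itself more often marked. The starts of paired genes are also richer in CpG, and both shares changed with it. For this, windows of 300 bases were centred on each start. Those with a GC content of at least 50% and an observed over expected CpG ratio of at least 0.6 were called CpG-rich. With such a window, 1158 of 1228 paired genes (94.3%) had a shared region, against 73.5% of unpaired genes. Without one, 145 of 220 paired genes (65.9%) did, against 14.2% of unpaired genes. Among the pairs themselves, 563 of 596 with a CpG-rich window around their midpoint (94.5%) and 98 of 138 without (71.0%) had a member.

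The starts of a pair are a median of 128 bp apart, with quartiles of 66.25 and 240 bp. The share of pairs with a member was 95.2% at 1 to 50 bp, 91.2% at 51 to 100 bp, 90.0% at 101 to 200 bp, 92.7% at 201 to 300 bp, 89.1% at 301 to 500 bp and 75.0% at 501 to 1000 bp. It was thus lowest in the widest class, which holds 68 pairs. The member with the widest gap inside the limit is Btf3l4/Txndc12 at 987 bp, and the next pair outside it is Gpr108/Trip10 at 1009 bp. The member region farthest from a start is that of Rnf151/Rps2, 998 bp away, and the nearest shared region left out lies 1082 bp from Mrpl54/Apba3, a pair that has a member of its own.

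The 73 pairs without a member were of several kinds. At 38 there was no peak in any list, at 12 in 1 list and at 23 in 2 lists, and of the last 18 lacked only clone 3. They include Col4a4/Col4a3, the collagen pair of the kidney and lung basement membrane, which had no peak in any clone although its starts are only 72 bp apart. Some that were named after their values were seen are Pecam1/Milr1, an endothelial and a mast cell gene, and Duox2/Duoxa2, a peroxide-forming oxidase and its maturation factor, both without a peak in any clone. Likewise Peg3/Usp29, an imprinted pair, had no peak, and Sgce/Peg10, another, had one in clone 2 alone. The tumour suppressor Tsc2 with the glycosylase gene Nthl1 had peaks in clones 1 and 2 and none in clone 3. CpG-rich windows made up 45.2% of the pairs without a member and 85.2% of those with one.

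The strongest peak of a member was high in its list. Fold enrichment compares the ChIP signal at the summit with its local background. In clone 1 it had a median of 20.4, with a lowest of 3.53 and a highest of 70.8. In clone 2 the median was 46.5, between 3.93 and 107.9. In clone 3 it was 8.46, between 2.61 and 24.1. Fold enrichment depends on the depth of ChIP and control and does not compare between clones, so each peak was also given its percentile within the list of its clone. The median percentile of the members was 83.1, 90.9 and 78.2 in clones 1, 2 and 3, and the summits held a median of 103, 254 and 86 ChIP reads. All members but 39, 3 and 103 were above the median of the list, and 537 were above it in all 3 clones. The regions of single genes were almost as strong, with median percentiles of 81.9, 90.1 and 77.4. The difference was 0.940 ± 0.244 percentile points (SD, n = 3 clones) and was positive in all 3 clones, but the exact sign-flip permutation test gives a two-sided p = 0.25, the smallest that 3 clones allow. When clone 2 was left out and regions were formed anew from the other lists, which gave 743 members, the difference was -0.470. The clones and the set of regions changed together there, and their parts were not separated.

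Divergent members held more bases under peaks than single genes in every clone. Their median was 1568, 1644 and 1461 bases in clones 1, 2 and 3, against 1305, 1443 and 1157 in the regions of single genes. The ratio was 1.20 ± 0.0617 (SD, n = 3 clones) and was above 1 in every clone, again with an exact two-sided p = 0.25, the smallest possible. The mark reached a median of 704 ± 17.5 bp past the start into the minus-strand gene and 731 ± 19.3 bp into the plus-strand gene (SD, n = 3). A single gene was covered for 904 ± 44.8 bp downstream of its start and 376 ± 82.7 bp upstream. Over all members the median reach was thus about even on the 2 strands, and shorter on each than downstream of a single start. Single pairs need not be even. At 456 members (70.0%) the mark reached further on the same side in all 3 clones. Bases under peaks varied from 258 to 6543 in clone 1 and similarly in the others.

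**Figure D1:**
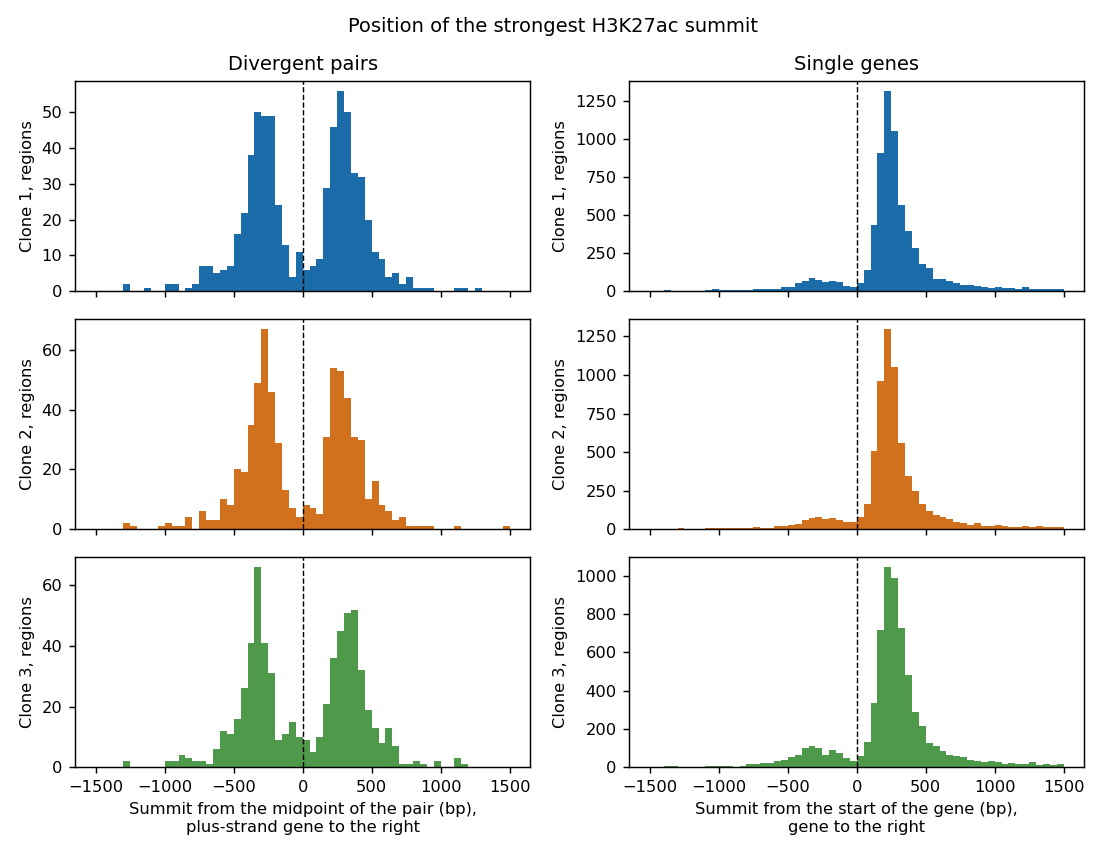
Position of the strongest H3K27-Ac summit in 50 bp bins for the 651 divergent members (left, distance in bp from the midpoint between the 2 starts, plus-strand gene to the right) and the 6955 regions of single genes (right, distance in bp from the start, gene to the right), by clone; bars count regions. Divergent members show 2 humps with few summits in the middle, and single genes show 1 hump downstream of the start.

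The highest point of the mark rarely lay between the 2 starts. In clone 1 the strongest summit was inside the minus-strand gene at 299 members, inside the plus-strand gene at 319 and between the starts at 33. In clone 2 the numbers were 316, 306 and 29, and in clone 3 they were 291, 317 and 43. The share between the starts was 5.07%, 4.45% and 6.61%, where the gap makes up a median of 7.81%, 7.18% and 8.31% of the bases under peaks. Neither strand took most of the summits. Summits inside a gene lay a median of 238, 232 and 272 bp past its start. Those of single genes lay downstream of the start in 89.3%, 89.6% and 85.5% of regions, with a median offset of 245, 240 and 258 bp. The plot of summit positions shows this as 2 humps on either side of the pair against 1 hump at a single gene. Because the outermost start of each gene was used, a gene whose main start lies further in would give a larger distance.

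The place of the summit changed with the width of the gap. Where the starts were up to 50 bp apart, 0.287% ± 0.498 of summits lay between them (SD, n = 3 clones), and at 51 to 100 bp none of 163 members had one there in any clone. At 101 to 200 bp the share was 0.749% ± 0.324. It was 11.9% ± 4.29 at 201 to 300 bp, 18.4% ± 4.34 at 301 to 500 bp and 24.4% ± 7.77 at 501 to 1000 bp. Summits between the starts were thus seen almost only where the gap was wider than 200 bp, and also there the gap made up more of the bases under peaks, a median of 43.1% in clone 3 in the widest class. At 17 members the summit lay between the starts in all 3 clones. One is Gart/Son, a purine synthesis enzyme and a splicing factor of nuclear speckles, with starts 554 bp apart and summits of 229, 427 and 148 reads in clones 1, 2 and 3. Others are Psme2/Rnf31, a proteasome activator subunit and a ubiquitin ligase, with a gap of 595 bp, and Fam227a/Cby1 with a gap of 243 bp.

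**Figure D2:**
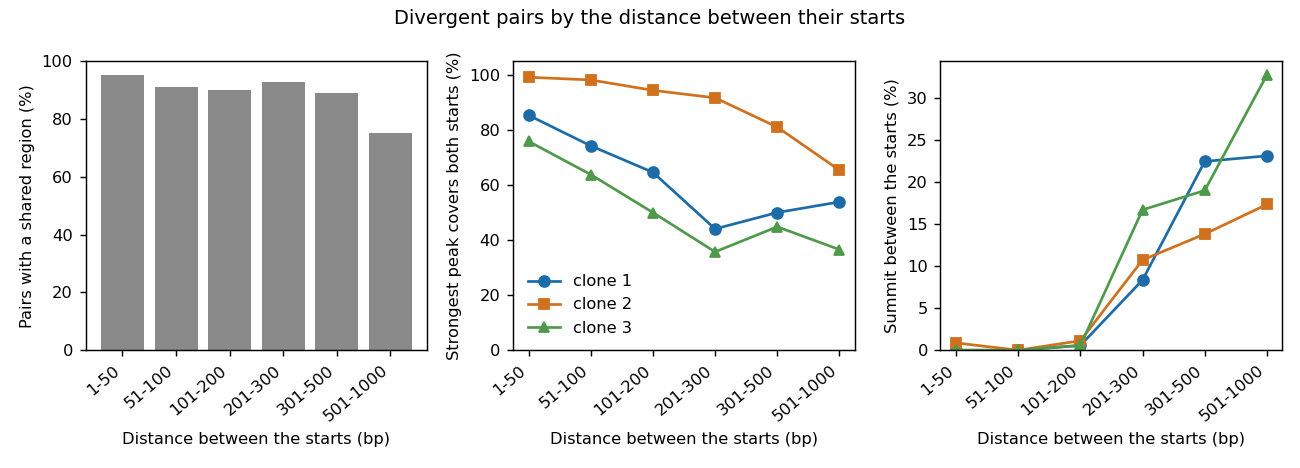
Divergent pairs by the distance between their starts in bp: percent of the 734 pairs with a shared region (left), and for members of clones 1 to 3 the percent whose strongest peak covers both starts (middle) and whose summit lies between the starts (right). The share of summits between the starts is below 1.2% up to 200 bp in each clone and between 17.3% and 32.7% at 501 to 1000 bp.

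In most members the mark was called as a single peak. Members with 1 peak numbered 493, 622 and 446 in clones 1, 2 and 3, and those with 2 numbered 154, 27 and 189. The strongest peak covered both starts in 65.9%, 92.3% and 54.7% of members, and in 321 members it did so in all 3 clones. In clone 2, which has the longest list and the highest fold enrichment at these regions, more members were thus a single peak than in the others. Where peaks were split, each gene could be measured on its own. A summit on each side was called at 133, 18 and 177 members. The higher side had a median of 1.69, 7.05 and 1.36 times the reads of the lower. At 85 members both sides had a summit in clone 1 and also in clone 3. Of these, 64 (75.3%) were higher on the same side in both clones, and the log2 ratio of reads between the sides had a Spearman correlation of 0.726 across the 85 members, which share the libraries.

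Of 15 textbook pairs looked for, 6 were divergent pairs by the rule and the other 9, such as Hspd1/Hspe1, have outermost starts that overlap. Of the 6, 5 had a member. Brca1/Nbr1 was higher on the Nbr1 side in every clone. Its summit held 174, 260 and 135 reads in clones 1, 2 and 3 and lay 117, 269 and 146 bp inside Nbr1, and in clone 3 a separate peak on the Brca1 side held 76 reads. Atm/Npat, where Atm is the kinase that signals DNA breaks and Npat activates histone genes, had its summit in Npat in every clone. It held 156, 276 and 81 reads, and a second peak on the Atm side of clone 1 held 34. Mcm4/Prkdc, a subunit of the replicative helicase and the DNA-dependent kinase of end joining, had its summit in Mcm4 throughout, with 100, 267 and 103 reads. At Mrps12/Sars2 the summit was in Sars2 in clones 1 and 2, with 107 and 325 reads, and in Mrps12 in clone 3, with 88 reads. Gart/Son was described above. The percentiles of these 5 pairs lay between 63.6 (Atm/Npat, clone 3) and 99.0 (Gart/Son, clone 2), so none was below the median of its list.

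The side of the summit tended to be kept between clones. At 447 of 651 members (68.7%) it lay on the same side of the midpoint in all 3 clones, 219 times on the minus-strand and 228 times on the plus-strand side. Clones 1 and 2 shared the side at 81.7% of members, clones 1 and 3 at 79.6% and clones 2 and 3 at 76.0%. The local background of the summits, in control reads, had a rank correlation (Spearman) of 0.701 across members between clones 1 and 2, against 0.164 between clones 1 and 3 and 0.118 between clones 2 and 3, so the lists of clones 1 and 2 may not be independent in their controls.

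This side went with the CpG content of the genes. CpG dinucleotides were counted in the first 1 kb of each gene, which the rule did not use. Among the 443 members with a kept side and unequal counts, the summit lay on the CpG-richer side at 347 (78.3%). The summit side had a median of 53 CpG and the other side 35. In all members with unequal counts the share was 70.0%, 72.8% and 67.4% in clones 1, 2 and 3. The share of summits on the plus-strand side rose from 18.7% ± 3.43 where the plus-strand gene had at least 31 CpG fewer to 82.0% ± 6.53 where it had at least 31 more (SD, n = 3 clones). With a difference of up to 5 CpG it was 50.5% ± 3.31. A large difference also went with a steadier side. Of 191 members with a difference of 31 or more, 78.5% kept the side in all clones, against 56.0% of 109 members with a difference of up to 5.

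GC content moved with the same side. The summit lay on the GC-richer side at 343 of 445 members (77.1%), and the GC content of the first 1 kb had a median of 55.4% on the summit side and 50.1% on the other. In 57 members whose sides differed by less than 2 points of GC, 40 summits (70.2%) were on the CpG-richer side. The part of GC content in the recovery of reads was not tested. The longer gene of a pair held the summit at 208 of 447 members (46.5%).

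**Figure D3:**
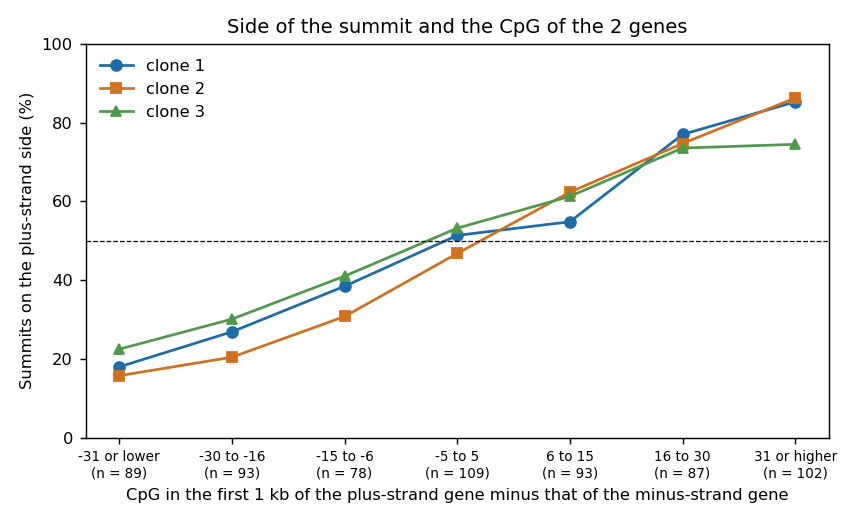
Percent of the 651 members whose strongest summit lies on the plus-strand side of the midpoint (y axis), in 7 classes of the difference in CpG count between the first 1 kb of the plus-strand and of the minus-strand gene (x axis, with the number of members), by clone. The dashed line marks 50%, and the share rises in each clone, from between 15.7% and 22.5% to between 74.5% and 86.3%.

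The strongest members, taken by their lowest percentile over the 3 clones, were at or above the 97.9th percentile in every list. They are Zfp91/Lpxn, Pafah1b2/Sik3, Dnajb4/Fubp1, Btf3l4/Txndc12, Dpm1/Mocs3, Sqstm1/Mgat4b, Tmed7/Eif1a, Cdc27/Myl4, Phf7/Bap1 and Recql/Golt1b. Zfp91/Lpxn, a zinc finger ubiquitin ligase and the focal adhesion protein leupaxin, had 277, 437 and 215 reads in clones 1, 2 and 3. Its summit lay 944, 1001 and 919 bp inside Zfp91, far deeper than at most members, and the first 1 kb of Zfp91 holds 119 CpG against 39 in Lpxn. Dnajb4/Fubp1 had 258, 450 and 229 reads, with the summit in Dnajb4 in clones 1 and 2 and in Fubp1 in clone 3. Pafah1b2/Sik3 had 305, 409 and 230 reads, always inside Sik3, 251, 251 and 232 bp from its start.

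At Cdc27/Myl4, a subunit of the anaphase-promoting complex and an atrial myosin light chain, the summit of 214, 417 and 190 reads lay in Cdc27 in all clones, on the side with 67 CpG against 17. The autophagy receptor Sqstm1, paired with the N-glycan enzyme Mgat4b, held the summit with 221, 431 and 166 reads, and separate peaks on the Mgat4b side held 208 in clone 2 and 135 in clone 3. Bap1, a deubiquitinase and tumour suppressor, held that of Phf7/Bap1 with 218, 426 and 161 reads, here on the side with fewer CpG, 47 against 62. Dpm1, which makes dolichol-phosphate mannose, held that of Dpm1/Mocs3 with 252, 438 and 180 reads, also on the poorer side, 89 against 141. At Recql/Golt1b the summit of 215, 349 and 147 reads lay in Golt1b. Of all members 93 were in the top decile of all 3 lists.

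The 5 weakest members, taken by their highest percentile, were Slc25a27/Cyp39a1, Ddx25/Pus3, H2-T22/Gm6034, Wdr54/1700003E16Rik and Lrrc74b/P2rx6. Slc25a27/Cyp39a1 had 20, 21 and 35 reads at its summit, and its peaks were 321, 335 and 369 bases wide. Ddx25/Pus3, a germ cell RNA helicase and a pseudouridine synthase, had 21, 17 and 46 reads, and the peaks lay 880 to 1087 bp inside Pus3. H2-T22/Gm6034 had 22, 16 and 37 reads, and since H2-T22 belongs to a family of similar genes, its reads may be shared with copies. The percentiles of these 3 pairs lay between 5.38 (H2-T22/Gm6034, clone 2) and 41.5 (Ddx25/Pus3, clone 3). These 3 were thus below the median of each list, but not its weakest peaks. Wdr54/1700003E16Rik was at the 17.2, 52.6 and 46.6 percentile in clones 1, 2 and 3, and Lrrc74b/P2rx6 at 52.1, 55.1 and 42.2. Both were thus above the median in at least 1 list.

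**Figure D4:**
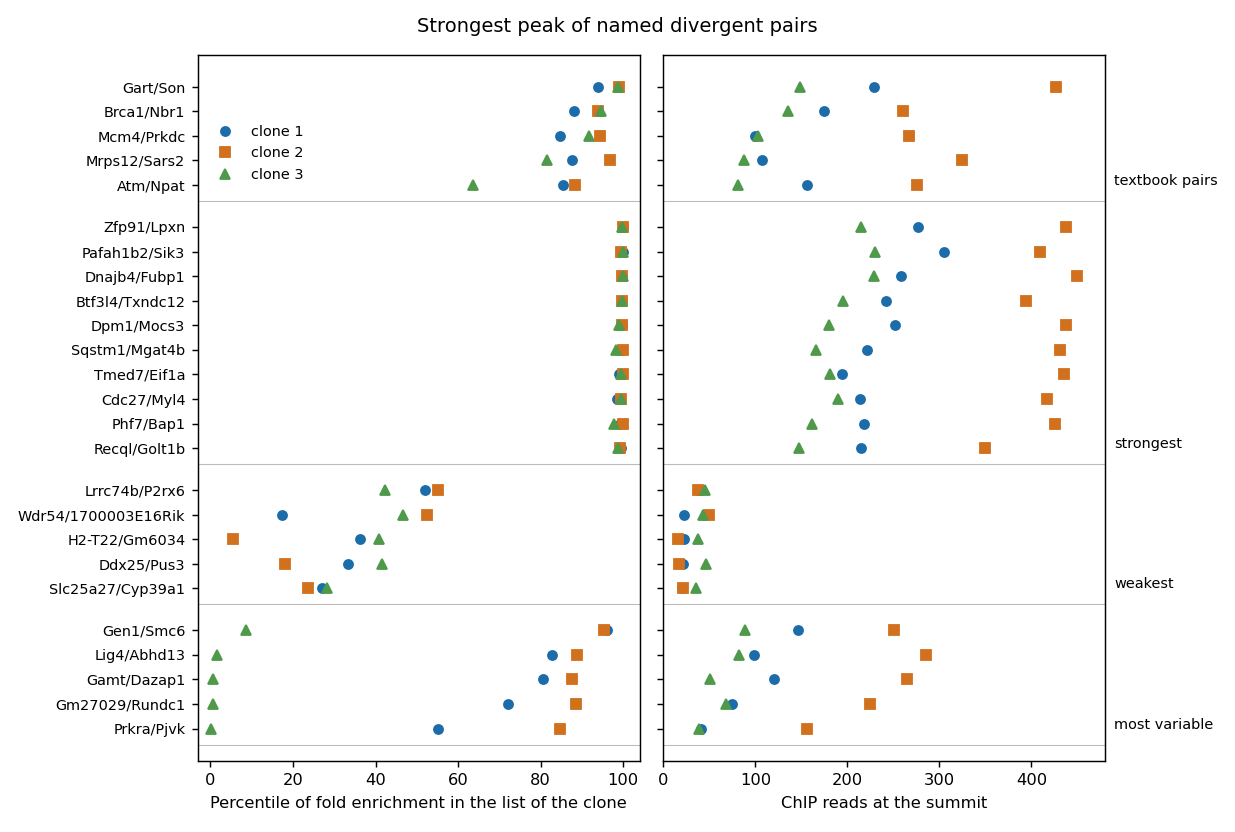
Strongest peak of named divergent pairs in clones 1 to 3: percentile of its fold enrichment in the list of the clone (left) and ChIP reads at its summit (right), for 5 textbook pairs, the 10 strongest, the 5 weakest and the 5 most variable members. Points are single clones; the 5 most variable pairs are below the 9th percentile in clone 3 only, while their reads in clone 3 lie between 39 and 89.

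The percentile of a member varied between clones by a median of 16.2 points, and at 49 members by more than 50. Clone 3 was the lowest at 45 of these 49, clone 1 at 4 and clone 2 at none. The rank correlation (Spearman) of percentiles across the 651 members was 0.793 between clones 1 and 2, 0.615 between 1 and 3 and 0.524 between 2 and 3. With ChIP reads in place of fold enrichment it was 0.859, 0.786 and 0.755, a description over members that share libraries. By reads the range between clones had a median of 14.8 points and was over 50 at 36 members. The 49 members were chosen by fold enrichment, of which the local background is the denominator. In clone 3 they had a median background of 3.00 control reads, against 2.00 over all members, and also fewer ChIP reads, a median of 49 against 86.

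The 5 most variable pairs show it one by one. Over all members the median background was 1, 1.09 and 2 control reads in clones 1, 2 and 3, so backgrounds do not compare directly between clones. In fold enrichment 1 ChIP read counted as 0.424, 0.428 and 0.308 in these clones. Reads over background are therefore not the fold, which was 3.56 at Gen1/Smc6 in clone 3. Gen1/Smc6, a resolvase of recombination and a subunit of the Smc5/6 complex, was at the 96.0th, 95.5th and 8.54th percentile of fold enrichment in clones 1, 2 and 3. Its summit in clone 3 held 89 reads, the 80.3rd percentile by reads, over a background of 7.00 control reads, against 0.677 and 0.743 in clones 1 and 2. Lig4/Abhd13, with the ligase of end joining, was at the 82.6th, 88.8th and 1.55th percentile. It had 98, 285 and 82 reads and a background of 1.13, 2.00 and 8.00. Gm27029/Rundc1 had 74, 225 and 68 reads over 1.35, 1.42 and 7.00. Prkra/Pjvk, where Prkra activates the kinase PKR, was low in clone 3 also by reads, with 41, 156 and 39, the 22.7th percentile by reads in clone 3. Gamt/Dazap1, an enzyme of creatine synthesis and an RNA-binding protein, had 120, 265 and 51 reads over 1.80, 2.00 and 5.00. In all 5 the background of clone 3 was at least 4.00 control reads. Whether this background came from the clone or from its control libraries was not tested.

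The widest members were Thap2/Zfc3h1, Slc25a29/Slc25a47, Fhod1/Slc9a5, Tshz1/Zadh2 and Ppp1r15a/Plekha4. Thap2/Zfc3h1 had 6543, 3332 and 6213 bases under peaks in clones 1, 2 and 3 and Slc25a29/Slc25a47 had 4050, 6576 and 3480, so their width differed between clones. The peaks of Ppp1r15a/Plekha4, where Ppp1r15a ends the stress block of translation, had 4229, 4158 and 4229 bases and differed little. Its summit lay in Ppp1r15a in all clones with 247, 400 and 184 reads.

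Genes of some functions were often in a pair. Of all protein-coding genes 6.96% are, and this share is a property of the annotation and not of the mark. The counts of paired genes with a shared region below stand against 90.0% of all paired genes, and unpaired genes of the same lists are given beside them. Here too 1 region can count for a gene through the start of its partner. Of 156 genes of DNA repair and replication 41 (26.3%) are in a pair, and 40 of the 41 had a shared region, as did 99 of the 115 that are not. The 39 members that hold them had median percentiles of 81.2, 90.0 and 73.0 in clones 1, 2 and 3, close to those of all members. Besides the pairs above, Polh/Xpo5 was at the 96.3rd, 99.1st and 34.3rd percentile and Dclre1a/Nhlrc2, with a nuclease of cross-link repair, at the 96.3rd, 98.5th and 80.4th. Both had the summit in the plus-strand gene throughout, Xpo5 and Nhlrc2.

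Chaperone genes were in a pair in 15 of 52 cases (28.8%), all 15 with a shared region, as had 35 of the 37 unpaired ones. At Tecr/Dnajb1 the summit lay in Dnajb1, a heat shock co-chaperone, with 230, 423 and 149 reads, and separate peaks on the Tecr side held 69 in clone 1 and 58 in clone 3. At Hspa14/Cdnf it lay in Hspa14, a member of the heat shock protein family, with 123, 325 and 127 reads. At Tbccd1/Dnajb11 a summit was called on each side in every clone, with 136, 336 and 108 reads in Dnajb11 and 75, 28 and 87 in Tbccd1. The 16 members with chaperone genes had median percentiles of 88.5, 90.4 and 84.1.

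Genes of the mitochondrial respiratory chain and ribosome were in a pair in 45 of 205 cases (22.0%), and all 45 had a shared region, as did 141 of the 160 unpaired ones. Uqcrh/Lrrc41 had 226, 433 and 139 reads, but its summit lay in Lrrc41, which holds 102 CpG in its first 1 kb against 26 in Uqcrh, a subunit of complex III. Uqcrq/Gdf9 pairs another subunit of complex III with an oocyte growth factor. Its summit of 198, 403 and 191 reads lay in Uqcrq in all clones. At Gm27021/Cox4i1 the summit lay in Cox4i1, a subunit of cytochrome oxidase, with 195, 404 and 163 reads, and at Mrpl54/Apba3 in Mrpl54, of the mitochondrial ribosome, with 219, 378 and 180 reads.

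Replication-dependent histone genes had the highest share, 27 of 67 (40.3%), in 14 pairs of which 13 had a member. A shared region was found at 25 of the 27, and at 36 of the 40 unpaired ones. The pair without one is Hist1h2ba/Hist1h2aa, with a peak in clone 2 alone. Their 13 members had median percentiles of 80.5, 87.6 and 63.3. Hist1h2ae/Hist1h2bg had 111, 281 and 68 reads with the summit in Hist1h2ae throughout, and a second peak in Hist1h2bg of 62 reads in clone 1 and 48 in clone 3. Hist1h2ac/Hist1h2bc had 85, 183 and 63 reads with the summit in Hist1h2bc. Histone genes have nearly identical copies, so reads inside them may be assigned to another copy.

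Of 84 genes of the cell cycle and mitosis 10 (11.9%) are in a pair, all with a shared region, which 58 of the 74 unpaired ones also had. Their members were at median percentiles of 90.8, 94.5 and 86.2. Alyref/Anapc11, an RNA export adaptor and a subunit of the anaphase-promoting complex, had 289, 446 and 210 reads with the summit in Alyref. The 9 paired genes of 88 cytosolic ribosomal proteins (10.2%), the 7 of 49 proteasome genes (14.3%) and the 5 of 37 aminoacyl-tRNA synthetases (13.5%) all had a shared region. So did 67 of 79, 35 of 42 and 31 of 32 unpaired genes of these lists. At Rpl9/Lias, Rpl36al/Mgat2 and Rps27/Rab13 the summit lay in the ribosomal protein gene in all clones, and at Iqcg/Rpl35a it lay in Rpl35a in clone 1 and between the starts in clones 2 and 3. At Psma7/Ss18l1 it lay in Ss18l1 in clone 1, with 185 reads, and in the proteasome gene Psma7 in clones 2 and 3, with 363 and 131. At Kars/Terf2ip, a lysyl-tRNA synthetase and a telomere protein, it lay in Terf2ip in clones 1 and 2 and in Kars in clone 3.

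Other gene families had few members in a pair. Of 415 zinc finger genes 20 (4.82%) are in a pair and 18 had a shared region, as had 239 of 395 unpaired ones. Of 53 collagen and laminin genes only Col4a3 and Col4a4 are, without a shared region, and none of 53 keratin genes is. Of the unpaired genes 11 of 51 and 2 of 53 had one. These counts follow from gene order, and the peaks add only whether a pair was marked.

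On chromosome 15 there were 22 members. Of these 10 lie between 67 and 87 Mb, an interval of this chromosome that the study examined. St13/Xpnpep3, a chaperone cofactor and an aminopeptidase, was the strongest by its lowest percentile, with 227, 397 and 206 reads at the 96.1st, 95.9th and 97.3rd percentile. Bop1/Hsf1, a ribosome assembly factor and the heat shock transcription factor, had its summit in Hsf1 throughout, with 160, 319 and 114 reads. At Sharpin/Maf1 the summit lay in Maf1, a repressor of RNA polymerase III, in clones 1 and 2 with 153 and 299 reads, and in clone 3 the sides were almost equal with 59 reads in Sharpin and 61 in Maf1. Eef1d/Tigd5 had 181, 425 and 201 reads in Eef1d, a translation elongation factor subunit. Fam227a/Cby1, where Cby1 inhibits beta-catenin, had 151, 346 and 161 reads between its starts, and its percentile of fold enrichment was 92.9, 96.8 and 61.8. In clone 3 the background there was 7.00 control reads, against 1.08 and 1.16 in clones 1 and 2. The median over all members was 1, 1.09 and 2 in clones 1, 2 and 3, so these do not compare directly. The weakest of the 10 by fold enrichment was Fbxl6/Slc52a2 in clone 3, with 49 reads at the 19.2nd percentile. Recql4/Lrrc14 and Tst/Mpst also lie in this interval.

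The DNA of the pairs was read in a window of 300 bases around the midpoint. Pairs with a member had a median GC content of 62.7%, against 59.0% in pairs without one and 65.0% in single genes with a shared region, where the window runs from 250 bases before the start to 50 after. The median ratio of observed to expected CpG was 0.871, 0.578 and 0.843. Between the starts of the pairs with a member, 119829 bases in all, the GC content was 60.4% and there were 7.55 CpG in 100 bases.

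Matches to 11 motifs were then counted on both strands. CCAAT, the NF-Y motif, was found in 302 of 661 windows of pairs with a member (45.7%), in 34.2% of the 73 pairs without one, in 34.9% of single genes with a shared region and in 36.2% of all protein-coding starts. At least 2 matches were found in 20.7% of the windows of these pairs and in 12.3% of those of single genes. Of 546 CCAAT matches, 434 (79.5%) lay between the starts, where 48.5% of the bases are. CCGGAAGT, the ETS motif, was found in 13.9% of windows, against 6.85%, 9.20% and 4.97% in the other groups in the same order, and 50.0% of its matches lay between the starts. In CpG-rich single genes with a shared region the shares were 34.5% for CCAAT and 10.5% for CCGGAAGT. The windows of pairs and single genes hold different amounts of sequence upstream and downstream of a start, so their shares are not strictly alike.

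AAGATGGCG, the YY1 motif, had the opposite place. It was found in 40 of 661 windows (6.05%) and in 2.23% of all starts, and of its 41 matches only 4 (9.76%) lay between the starts and the rest inside a gene. GGGCGG was found in 70.0% of windows, in 68.8% of single genes with a shared region and in 76.6% of those that are CpG-rich. TATAAA was rare, at 4.39%, against 4.81% in single genes with a shared region and 10.7% in all starts. The CRE (TGACGTCA, 4.69%), NRF1 (GCGCATGCG, 5.30%), E2F (TTCCCGCC, 5.30%), ZBTB33 (TCTCGCGAG, 3.03%), AP-1 (TGACTCA, 2.12%) and ZNF143 (ACTACAATT, 0.756%) motifs were found in few windows. In all starts they were found in 2.32%, 2.11%, 3.00%, 0.860%, 4.08% and 0.452%. A match is a run of letters and was not tested for binding.

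**Figure D5:**
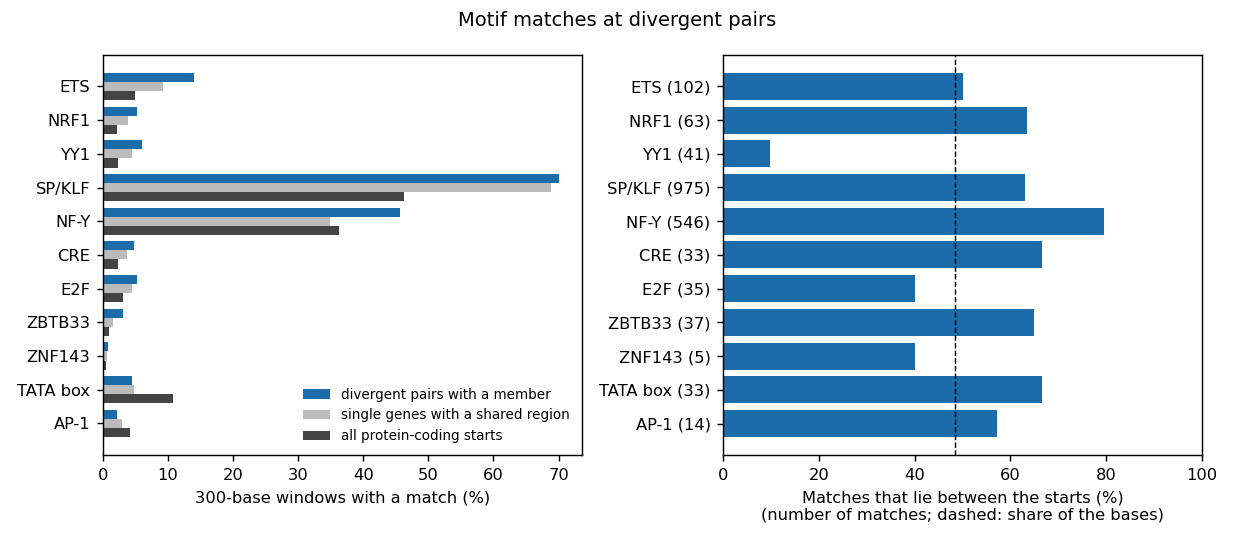
Left, percent of 300-base windows with at least 1 match to each of 11 motifs in divergent pairs with a member (n = 661), single genes with a shared region (n = 8054) and all protein-coding starts (n = 20807); right, percent of the matches in pairs with a member that lie between the 2 starts, with the number of matches, and the dashed line at the 48.5% of bases that lie there. NF-Y matches lie above the line at 79.5% and YY1 matches below it at 9.76%.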

How the data were processed

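H3K27-Ac ChIP-seq of 3 clones was analysed from the deposited peak lists. Per the paper, reads were aligned to GRCm38 by bowtie2 at its defaults; the labels name MACS2 2.1.1 in the submitters' processing notes. Fold enrichment, as deposited, is a ratio of ChIP pileup to local background at the summit, and the authors also gave −log10 p-value and −log10 q-value. The deposited score column was not used. Peak names mark the reads of clones 1 and 2 as checked for allelic mapping bias, and those of clone 3 as merged. ChIP reads and background were solved from fold and p as a Poisson tail, every peak giving whole reads with a misfit of −log10 p of at most 0.000217; the solver was tested on simulated data.

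Genes and outermost starts came from GENCODE M21, sequences from GRCm38.p6 (RefSeq), with coordinates counted from 1. The tools were scipy 1.17.1, pandas 2.3.3 and numpy 2.4.6 under Python 3.11.15, with figures by matplotlib 3.10.9. Pairs named were textbook pairs, the 10 strongest, 5 weakest, 5 widest and 5 most variable members, those of the chromosome 15 interval, those at the limits and the 2 to 4 strongest of each list. The members and gene lists were chosen with earlier results of these data known. Name patterns for ribosomal proteins and collagens were narrowed after a kinase and a lipid transfer protein had matched. Lists were of name starts for 8 families and of symbols for the others. With 1 condition, the only tests are exact sign-flip tests over clones. Where all 3 clones have the same sign, the p of this test is 0.25 whatever their spread, so it does not measure that spread. Counting error and the threshold of the lists limit the weak sites. The local background of the most variable members and its correlation between clones were computed after their percentiles had been seen. Some pairs that the rule names are not reported here.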

Additional observations from a re-analysis of the deposited data

How the results depend on the processing

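No paired analysis was possible because there is 1 condition and so no second group of samples to pair, apart from the sign-flip tests, which compare both kinds of region within each clone. With −log10 q of at least 5 the share of pairs with a shared region was 83.9%, and with starts up to 2 kb apart 86.6%. Adding pairs whose starts overlap head to head by up to 1 kb gave 1023 members. With starts at most 500 bp apart 3.73% of summits lay between them. Leaving out a clone gave 656 to 743 members, 90.2% to 92.2% of pairs, 1290 to 1583 bases under peaks and a difference in percentile to single genes between -0.470 (without clone 2) and 1.94. It also gave the same side at 76.2% to 87.1% of members, where only 2 clones had to share it. Against single genes of like GC content the difference was 2.11 points and the ratio of bases 1.26. Of 63 alternatives 53 counted as unchanged. For the 2 comparisons with single genes this asked for the same direction only, and the difference was 0.390 with −log10 q of at least 5 and 0.663 with starts at most 500 bp apart. For the other results it asked for a value within 1.5 times the count, 1 SD over clones or the 95% Wilson interval. Intervals cover counting error only. The share of members whose strongest peak covers both starts was 71.0% ± 19.3 (SD, n = 3 clones). Without clone 1, 2 or 3 it was 73.2%, 53.0% and 77.8%, which counted as unchanged only because that SD is wide. Peak lists hold nothing below their threshold, so a pair without a member may carry a weaker mark.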
